A study of Mus musculus with 10 samples.

Results

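Bile acid synthesis and transport was followed in the liver through 10 genes taken by name: *Cyp7a1*, *Cyp8b1*, *Cyp27a1* and *Cyp7b1* (cytochrome P450 enzymes of bile acid synthesis), *Slc27a5* and *Baat* (conjugation), *Slc10a1* and *Abcb11* (uptake and export), and *Nr1h4* and *Nr0b2* (nuclear receptors of the feedback loop). All 10 were present among the 12148 genes of the count table, under the Ensembl identifiers that GENCODE pairs with these symbols. The livers came from wild-type C57BL/6 mice raised germ-free (GF), 5 of which received extracellular vesicles of gut microbiota (MEV), purified from caecal content and stool, by mouth at 80 μg in PBS 2 times weekly over 3 weeks (GF+MEV), while the other 5 received PBS alone (GF+PBS). Whole liver RNA was sequenced, with 1 library per mouse, in an experiment that was run once. Age, sex, caging and the hour of liver collection are not given for these mice in the sources used here. Both groups were germ-free, and the comparison asks what the vesicles change in the liver of such mice.

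Bile acids are made from cholesterol in hepatocytes. In the classic pathway CYP7A1 (cholesterol 7alpha-hydroxylase) takes the rate-limiting first step and CYP8B1 adds the 12alpha-hydroxyl group that makes cholic acid, while in the alternative pathway CYP27A1 oxidises the side chain and CYP7B1 hydroxylates the resulting oxysterols. SLC27A5 and BAAT then join the bile acid to coenzyme A and to an amino acid. ABCB11 (BSEP) pumps it into the canaliculus and SLC10A1 (NTCP) takes it back up from portal blood. The bile acid receptor FXR, encoded by *Nr1h4*, induces *Nr0b2* (SHP), whose product represses *Cyp7a1* and *Cyp8b1*, and gut bacteria are known to feed into this loop because they deconjugate and dehydroxylate bile acids.

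Of the 10 genes, *Cyp27a1* alone passed the test between the groups, higher in GF+MEV livers, and none passed as lower. Across the 12147 genes tested by edgeR's quasi-likelihood test (Benjamini-Hochberg adjusted p under 0.05), 7.64% were called, 4.12% as higher and 3.52% as lower, so 1 call among 10 genes was near the background. The median log2 fold change (GF+MEV over GF+PBS) of the 10 was 0.01, and that of all tested genes was -0.00. With upper-quartile scaling in place of TMM, the share of called genes that were higher went from 53.9% to 41.2%. At an unadjusted p under 0.05, 2 of the 10 genes passed, *Cyp27a1* and *Cyp7b1*. Expression is given below as CPM, a gene's count scaled to the TMM-adjusted size of its library.

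**Figure D1:**
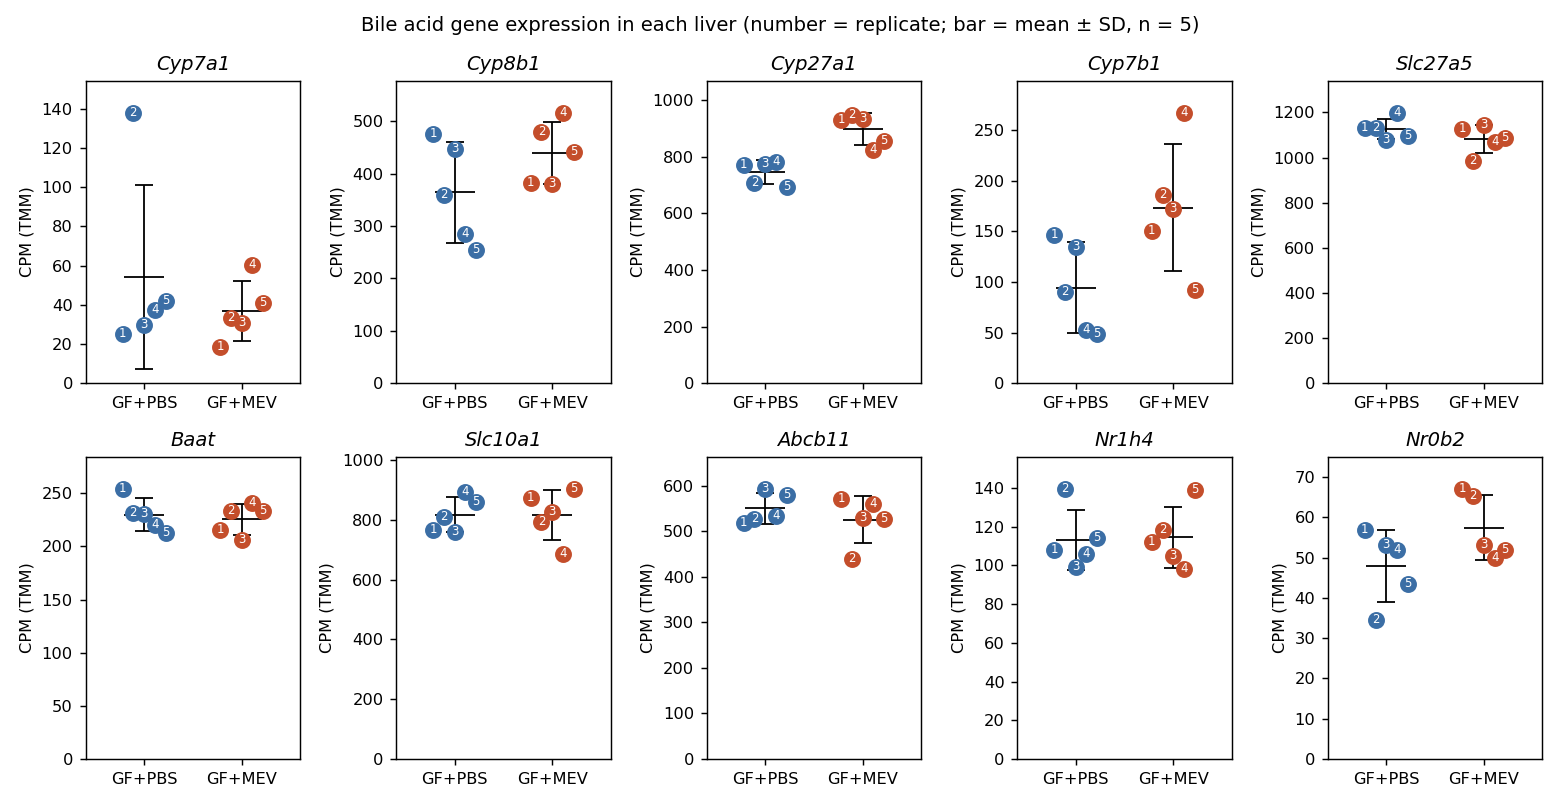
CPM of each of the 10 bile acid genes in every liver, with the replicate number inside each point and the mean ± SD (n = 5) as bars; all axes start at 0. The groups are apart for *Cyp27a1* (825 to 949 against 692 to 782 CPM) and overlap for the 9 other genes, and *Cyp7a1* in GF+PBS replicate 2 stands at 138 CPM.

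Libraries held between 15746119 and 20523649 counts on genes, and each of the 10 genes had at least 307 counts in every liver, the lowest being *Cyp7a1*. The hepatocyte marker list (6 of 7 genes tested, 1 called higher) summed to between 92926 and 110410 CPM in GF+MEV livers and between 95740 and 111143 CPM in GF+PBS livers, and its defining marker *Alb* (albumin) stood at 76247 ± 7005 and 78079 ± 4589.5 CPM (SD, n = 5). The Kupffer cell list (6 of 6 genes tested, 162 to 332 against 194 to 283 CPM, *Clec4f* at 80.7 against 89.8 CPM) and the stellate cell list (6 of 6 tested, 153 to 223 against 174 to 193 CPM, *Reln* at 44.8 against 39.8 CPM) held no called gene. GF+MEV replicate 4 was the highest of its group for all 6 Kupffer markers. Named after their values were seen, *Cd5l* was at 150 CPM there (group median 70.2) and *Marco* at 21.2 CPM (group median 1.79). The same liver had the most *Cyp7a1*, *Cyp7b1* and *Cyp8b1* of its group. The endothelial list (6 of 6 tested, 113 to 187 against 142 to 196 CPM, *Stab2* at 41.2 against 39.9 CPM) had 1 called gene in each direction. Of the cholangiocyte list 4 of 8 genes were tested, with sums of 36.8 to 90.9 against 32.5 to 40.4 CPM, and its defining marker *Krt19* was the 1 called gene, higher at 0.964 to 16.8 CPM against 0.303 to 0.781 CPM, while *Sox9*, named after its values were seen, was at a mean of 0.961 against 1.88 CPM (log2 fold change -0.98) and did not pass the adjusted test. In the periportal hepatocyte list 3 of 8 genes were called higher and 0 lower (5167 to 6345 against 4216 to 5252 CPM), with log2 fold changes over the list from -0.26 to 1.58, the highest being that of its defining marker *Sds*. In the pericentral list 2 of 8 were called lower and 0 higher (12678 to 14365 against 13786 to 14300.5 CPM, *Glul* at 1035 against 1025 CPM), with log2 fold changes from -1.01 to 0.23. These counts stand beside the 7.64% of all tested genes that were called. In whole liver, fewer cells of a type and less RNA per cell cannot be told apart, and the part of these marker shifts in the results that follow was not tested.

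On a scale of CPM per kilobase of exon, which allows levels to be compared between genes, *Slc27a5*, *Slc10a1* and *Cyp27a1* were the most abundant of the 10. *Slc27a5* had a median of 456 CPM per kilobase over the 10 livers, followed by *Slc10a1* at 372 and *Cyp27a1* at 369.6. *Cyp8b1* followed at 211, *Baat* at 119 and *Abcb11* at 103. *Cyp7b1* stood at 64.9, *Nr1h4* at 47.7, *Nr0b2* at 46.3 and *Cyp7a1* last at 8.49 CPM per kilobase. Only between *Cyp27a1* (lowest liver 318) and *Cyp8b1* (highest liver 264) did neighbours in this order not overlap across the 10 livers. As a ratio of the highest to the lowest liver, the range within a gene was widest for *Cyp7a1*, from 4.49 to 33.0 CPM per kilobase, and next for *Cyp7b1*, from 22.4 to 123.

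Promoter sequence was held by RefSeq (GRCm38.p6) for 6 of the 10 genes, *Cyp8b1*, *Cyp27a1*, *Slc10a1* (with 2 starts), *Abcb11*, *Nr1h4* and *Nr0b2*. Shown here are the 250 bases before the start of transcription, 5′ to 3′ on the gene's own strand, for *Cyp27a1*, the called gene, and for the 3 promoters in which a motif of the feedback loop was found. They lie at chr1:74713285-74713534 (plus strand, *Cyp27a1*), chr9:121916306-121916555 (minus strand, *Cyp8b1*), chr2:69342617-69342866 (minus strand, *Abcb11*) and chr4:133553126-133553375 (plus strand, *Nr0b2*). Capitals mark the motif matches.
Cyp27a1: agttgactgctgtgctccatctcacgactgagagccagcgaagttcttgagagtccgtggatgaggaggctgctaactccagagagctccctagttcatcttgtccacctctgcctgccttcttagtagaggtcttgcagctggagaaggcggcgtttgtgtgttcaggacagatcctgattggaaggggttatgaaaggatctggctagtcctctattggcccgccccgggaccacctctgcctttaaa
Cyp8b1: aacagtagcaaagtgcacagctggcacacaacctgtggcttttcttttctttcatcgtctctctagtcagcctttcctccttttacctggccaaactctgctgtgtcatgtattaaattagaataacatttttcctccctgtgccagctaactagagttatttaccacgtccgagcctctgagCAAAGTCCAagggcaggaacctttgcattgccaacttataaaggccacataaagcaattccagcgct
Abcb11: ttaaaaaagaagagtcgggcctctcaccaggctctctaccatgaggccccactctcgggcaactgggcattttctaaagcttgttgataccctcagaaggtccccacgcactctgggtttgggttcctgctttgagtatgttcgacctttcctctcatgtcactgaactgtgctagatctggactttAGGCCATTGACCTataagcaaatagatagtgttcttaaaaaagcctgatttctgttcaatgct
Nr0b2: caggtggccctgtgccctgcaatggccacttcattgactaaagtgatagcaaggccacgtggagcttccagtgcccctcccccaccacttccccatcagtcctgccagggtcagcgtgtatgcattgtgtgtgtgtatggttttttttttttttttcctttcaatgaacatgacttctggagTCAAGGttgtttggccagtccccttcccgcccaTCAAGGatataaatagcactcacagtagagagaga
Both strands were searched for an FXR inverted repeat (AGGNCA, 1 base of any kind, then TGACCT), the LRH-1 core (TCAAGG), an HNF4 site (CAAAGTCCA) and a FOXO site (GTAAACA), and no match overlapped another. *Abcb11* held the FXR repeat from 63 to 51 bases before its start, a motif found in 11 of 32851 RefSeq promoter windows of the same length (0.0335%). *Cyp8b1* held the HNF4 site from 67 to 59 bases before its start, found in 0.384% of windows. *Nr0b2* held 2 LRH-1 cores, at 68 to 63 and at 35 to 30 bases before its start, a motif in 12.5% of windows. None of the 4 motifs was in the windows of *Cyp27a1*, *Slc10a1* or *Nr1h4*, and the FOXO site, present in 3.17% of windows, was in no window of the 6 genes. The *Nr1h4* window (chr10:89506659-89506908, minus strand) lies inside the span of the gene. The sequence before the outermost start of *Nr1h4* was not searched. A match in letters is a description of the sequence only.

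*Cyp27a1* (ENSMUSG00000026170, chr1:74713574-74737892 of GRCm38), the mitochondrial sterol 27-hydroxylase, rose in GF+MEV livers. Its expression was 929, 949, 934, 825 and 854 CPM in GF+MEV replicates 1 to 5. In GF+PBS replicates 1 to 5 it was 771, 706, 774, 782 and 692 CPM. The lowest GF+MEV value exceeded the highest GF+PBS value, and the groups did not overlap, in one direction or the other, in 7.39% of all tested genes. The means were 898 ± 55.0 and 745 ± 42.6 CPM (SD, n = 5), a 1.21-fold difference and a log2 fold change of 0.27 ± 0.055 (SE, with an edgeR adjusted p of 0.0152). An exact two-sided permutation test over all labelings of 5 livers against 5 gave p = 0.00794, the smallest it can give. Under upper-quartile scaling the log2 fold change was 0.23 and the call was lost (edgeR adjusted p = 0.0504).

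*Cyp7b1* (ENSMUSG00000039519, chr3:18071950-18243338), the oxysterol 7alpha-hydroxylase of the same pathway, had the largest fold change of the 10 genes but did not pass the adjusted test. In GF+MEV replicates 1 to 5 it was measured at 151, 186, 172, 267 and 92.5 CPM. In GF+PBS replicates 1 to 5 it was at 147, 89.8, 134, 52.9 and 48.5 CPM. All GF+MEV livers but replicate 5 were above all GF+PBS livers, and that replicate lay among the controls. The means were 174 ± 63.0 and 94.4 ± 45.2 CPM (SD, n = 5), a 1.84-fold difference and a log2 fold change of 0.88 ± 0.41 (SE, with an edgeR adjusted p of 0.102, 95% interval from limma-voom 0.28 to 1.61). The exact two-sided permutation test gave an unadjusted p of 0.0476. Without GF+MEV replicate 5 the log2 fold change was 1.04 (edgeR adjusted p = 0.0494) and without GF+PBS replicate 1 it was 1.09 (edgeR adjusted p = 0.0453), so that the call turned on single livers.

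*Cyp7a1* (ENSMUSG00000028240, chr4:6265612-6275633), the rate-limiting enzyme of the classic pathway, varied more between livers than between groups. The GF+MEV replicates 1 to 5 stood at 18.7, 33.5, 30.7, 60.1 and 41.0 CPM. The GF+PBS replicates 1 to 5 stood at 24.99, 138, 29.6, 37.3 and 42.0 CPM. Replicate 2 of GF+PBS lay far above the 9 other livers, which ran from 18.7 to 60.1 CPM in both groups together. The means were 36.8 ± 15.3 and 54.3 ± 47.1 CPM (SD, n = 5), with an edgeR log2 fold change of -0.56 (edgeR adjusted p of 0.486). The limma-voom estimate was smaller, at -0.35 (95% interval -1.19 to 0.49). The SE of the difference in mean log2 CPM was 0.51. Without GF+PBS replicate 2 the sign turned, to 0.14 (edgeR adjusted p = 0.808), so these data give no direction for *Cyp7a1*, and the interval leaves room for a change of either sign.

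*Cyp8b1* (ENSMUSG00000050445, chr9:121914356-121916305), the sterol 12alpha-hydroxylase, had the same log2 fold change as *Cyp27a1* but a wider spread. Its level was 382, 479, 379.9, 515 and 441 CPM in GF+MEV replicates 1 to 5. It was 475, 359, 447, 286 and 254 CPM in GF+PBS replicates 1 to 5. The groups overlapped, with GF+PBS replicates 1 and 3 inside the GF+MEV range and the 3 others below it. The means of 439 ± 59.5 and 364 ± 96.7 CPM (SD, n = 5) gave a log2 fold change of 0.27 ± 0.20 (SE, with an edgeR adjusted p of 0.338, 95% interval from limma-voom -0.02 to 0.63).

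The conjugating enzymes varied little, between livers or between groups. *Slc27a5* (ENSMUSG00000030382, chr7:12988346-12998192), the bile acid coenzyme A ligase, ran from 983 to 1144 CPM in GF+MEV livers (median 1086) and from 1079 to 1196 CPM in GF+PBS livers (median 1130.0). Its log2 fold change was -0.06 (edgeR adjusted p = 0.623, 95% interval from limma-voom -0.17 to 0.05). *Baat* (ENSMUSG00000039653, chr4:49489422-49506557), which transfers the bile acid to an amino acid, ran from 206 to 241 CPM against 213 to 254 CPM, with a log2 fold change of -0.03 (with an edgeR adjusted p of 0.863, interval -0.16 to 0.11). The coefficient of variation within a group was between 3.97% and 6.76% for this pair of genes, against 41.6% in GF+MEV and 86.7% in GF+PBS for *Cyp7a1*. For either gene the 95% interval did not reach the log2 fold change of 0.27 measured for *Cyp27a1*.

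Uptake and export genes overlapped between the groups. *Slc10a1* (ENSMUSG00000021135, chr12:80953183-80968705), the sodium-dependent uptake carrier, was at 874, 793, 826, 686 and 904 CPM in GF+MEV replicates 1 to 5 and at 765, 812, 762, 894 and 860.4 CPM in GF+PBS replicates 1 to 5. The means were 816 ± 84.8 and 819 ± 58.2 CPM (SD, n = 5), with a log2 fold change of -0.00 (with an edgeR adjusted p of 0.988, 95% interval from limma-voom -0.17 to 0.15), and the sign of a value this near 0 turned when single livers were left out. *Abcb11* (ENSMUSG00000027048, chr2:69238282-69342616), the bile salt export pump whose promoter carries the FXR repeat printed above, was at 569.8, 440.0, 529, 559.8 and 527 CPM in GF+MEV and at 517, 527, 592, 533 and 580.3 CPM in GF+PBS. Its log2 fold change was -0.07 ± 0.077 (SE, with an edgeR adjusted p of 0.665, interval -0.22 to 0.08). Exons of *Abcb11* overlap those of *Gm13613* and *Gm13614* on the other strand, and reads of overlapping genes cannot be told apart without strand.

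The feedback receptors did not pass the test either. *Nr1h4* (ENSMUSG00000047638, chr10:89454234-89533585), encoding FXR, ran from 98.2 to 139 CPM in GF+MEV livers (median 112) and from 99.2 to 139 CPM in GF+PBS livers (median 108), with a log2 fold change of 0.01 (with an edgeR adjusted p of 0.957, 95% interval from limma-voom -0.20 to 0.23). *Nr0b2* (ENSMUSG00000037583, chr4:133553376-133556536), encoding SHP, was at 67.0, 65.4, 53.1, 49.9 and 51.8 CPM in GF+MEV replicates 1 to 5. In GF+PBS replicates 1 to 5 it was at 56.97, 34.4, 53.1, 51.8 and 43.5 CPM. Its log2 fold change was 0.26 ± 0.16 (SE, with an edgeR adjusted p of 0.258, interval -0.01 to 0.54), and only GF+MEV replicates 1 and 2 were above every control liver. *Abcb11* and *Nr0b2*, among the genes known to be induced by FXR, thus stood at -0.07 and 0.26 on the log2 scale. *Cyp7a1* and *Cyp8b1*, known to be repressed through SHP, stood at -0.56 and 0.27. None of these passed the test, and they are not the full set of FXR targets.

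**Figure D2:**
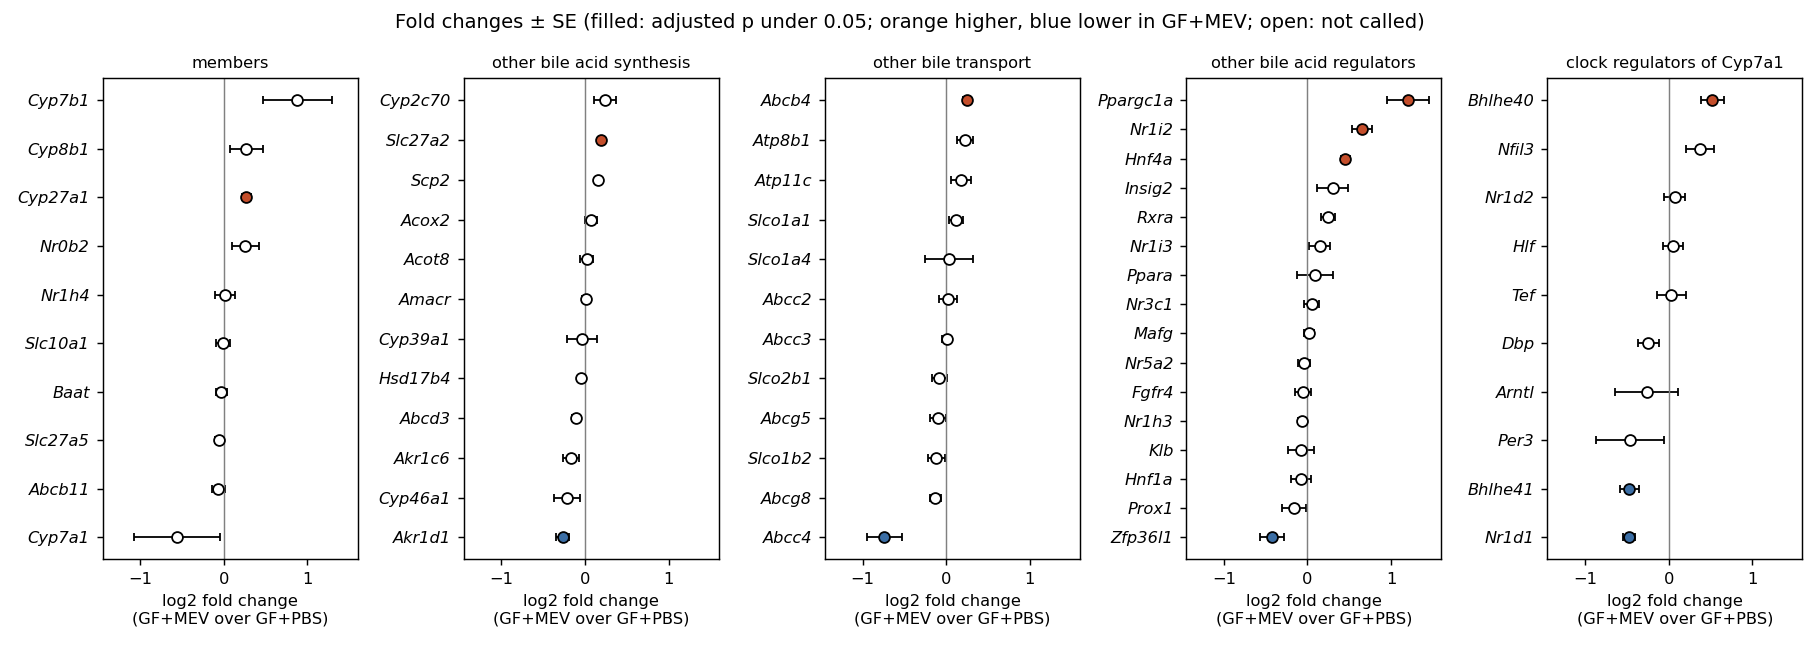
Log2 fold change (GF+MEV over GF+PBS) ± standard error of the 10 bile acid genes and of 4 lists of related genes, ordered by size in each panel; filled points passed edgeR's test (orange higher, blue lower). *Cyp27a1* at 0.27 is the filled point of the first panel, and *Ppargc1a* at 1.21, *Nr1i2* at 0.65 and *Hnf4a* at 0.45 are those called higher among the regulators.

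Ratios of counts within a liver, which do not depend on library scaling, were compared for 4 pairs of steps by exact two-sided permutation tests, adjusted over the 4. The *Cyp7a1* to *Cyp7b1* ratio (classic against alternative 7alpha-hydroxylation) had a mean log2 value of -2.26 ± 0.68 in GF+MEV and -0.97 ± 1.35 in GF+PBS (SD, n = 5), a difference of -1.29 ± 0.68 (standard error; permutation p = 0.103, adjusted p = 0.413). By liver it was -3.01, -2.47, -2.49, -2.15 and -1.17 in GF+MEV replicates 1 to 5 and -2.55, 0.62, -2.18, -0.50 and -0.21 in GF+PBS replicates 1 to 5. GF+PBS replicates 1 and 3 lay inside the GF+MEV range and the 3 other controls above it, and without GF+PBS replicate 2 the difference was -0.90. The *Cyp8b1* to *Cyp7a1* ratio (12alpha-hydroxylation against the first step) differed by 0.65 (3.67 ± 0.47 against 3.02 ± 1.14, SD, n = 5; permutation p = 0.278, adjusted p = 0.556), and by 0.24 without GF+PBS replicate 2. The *Slc10a1* to *Abcb11* ratio (uptake against export) differed by 0.06 (permutation p = 0.556, adjusted p = 0.714, n = 5) and the *Baat* to *Slc27a5* ratio by 0.03 (permutation p = 0.714, adjusted p = 0.714, n = 5). All 4 ratios overlapped between the groups.

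**Figure D3:**
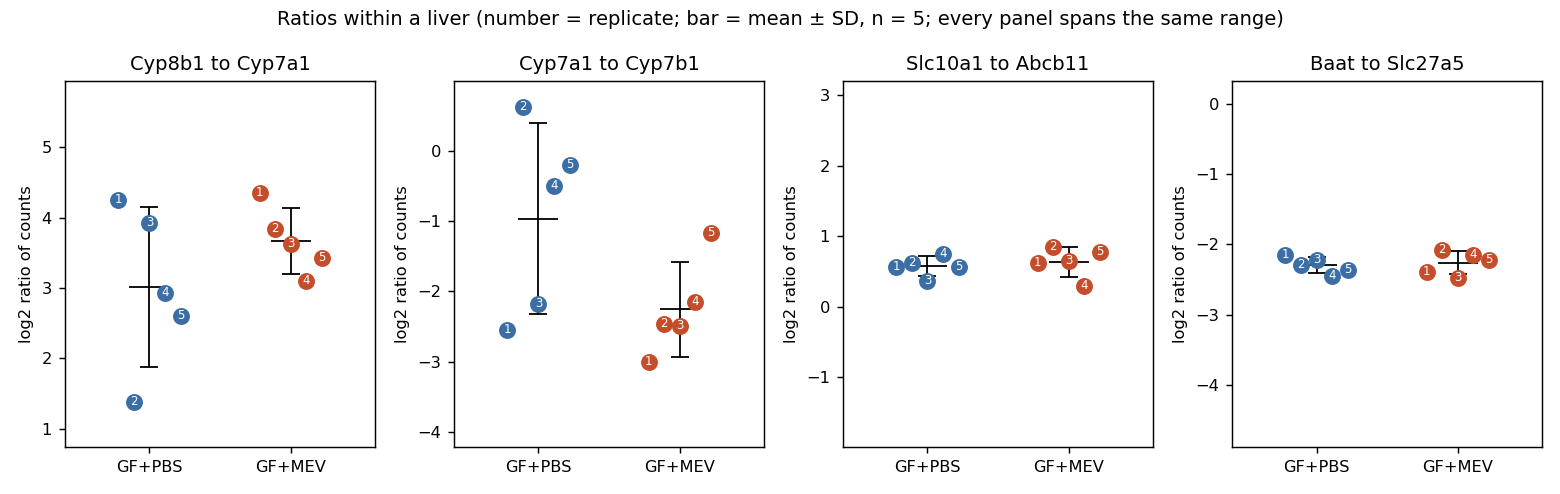
Log2 ratio of counts within each liver for 4 pairs of bile acid genes, with the replicate number inside each point, the mean ± SD (n = 5) as bars, and the same span on every axis. The ratios that hold *Cyp7a1* spread widely in GF+PBS (from -2.55 to 0.62 for *Cyp7a1* to *Cyp7b1*), while *Slc10a1* to *Abcb11* stays between 0.29 and 0.85 in all livers.

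Within each group, some of the bile acid genes varied together and others in opposition. The liver with the most *Cyp7a1* had the least *Nr0b2* in both groups, GF+PBS replicate 2 (138 and 34.4 CPM) and GF+MEV replicate 4 (60.1 and 49.9 CPM), and the liver with the least *Cyp7a1* had the most *Nr0b2* in both, GF+PBS replicate 1 (24.99 and 56.97 CPM) and GF+MEV replicate 1 (18.7 and 67.0 CPM). These 2 genes are plotted against each other by liver. After removing each group's mean, Pearson r with *Nr0b2* over the 10 livers was -0.91 for *Cyp7a1*. It was 0.21 for *Cyp8b1*, also known to be repressed through SHP, 0.21 for *Cyp7b1* and 0.78 for *Cyp27a1*. Whether SHP bears on these patterns was not tested. *Cyp7b1* was opposed in the same way to *Slc10a1* (r = -0.88), and so was *Cyp8b1* (-0.73). *Cyp8b1* varied together with *Cyp7b1* (0.83) and with *Baat* (0.87). *Cyp7b1* was highest in GF+MEV replicate 4 (267 CPM), where *Slc10a1* was lowest (686 CPM). It was lowest in GF+MEV replicate 5 (92.5 CPM), where *Slc10a1* was highest (904 CPM). In GF+PBS, replicates 1 and 3 had the most *Cyp7b1* (147 and 134 CPM) and the least *Slc10a1* (765 and 762 CPM), and replicates 4 and 5 the reverse (52.9 and 48.5 against 894 and 860.4 CPM). These pairs were picked after their values were seen, over 5 livers a group that share library scaling, and are given without a test.

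**Figure D4:**
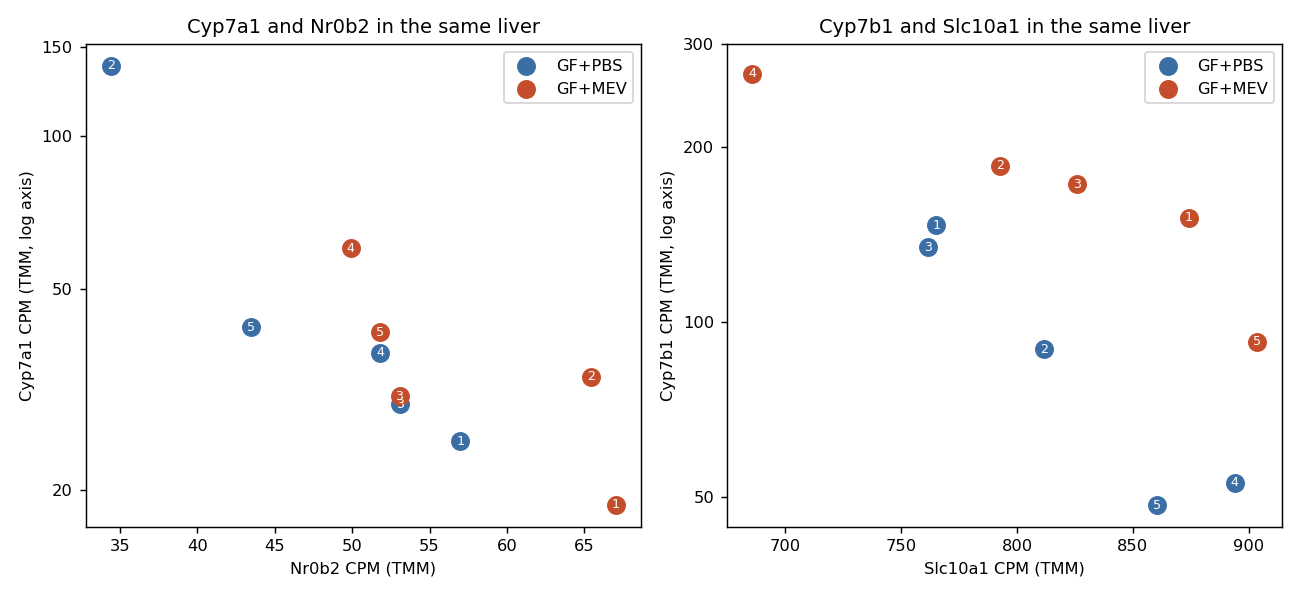
*Cyp7a1* against *Nr0b2* (left) and *Cyp7b1* against *Slc10a1* (right) in the same liver, in CPM with a log y axis, coloured by group and numbered by replicate. In the left panel the lowest *Nr0b2* (34.4 CPM) goes with the highest *Cyp7a1* (138 CPM), and in the right panel each group runs from high *Cyp7b1* with low *Slc10a1* to the reverse.

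Within GF+PBS, replicates 1 and 3 were alike, and so were replicates 4 and 5. Over the 10 bile acid genes, the root mean square difference was 0.13 on the log2 scale between replicates 1 and 3 and 0.15 between replicates 4 and 5, against 0.49 to 0.86 for the other GF+PBS pairs and 0.20 to 0.64 for the GF+MEV pairs. Over all tested genes the same pairs differed by 0.283 and 0.276, against 0.311 to 0.402 and 0.324 to 0.379. *Cyp8b1* separated them (475 and 447 CPM in replicates 1 and 3, 286 and 254 CPM in replicates 4 and 5). The clock gene *Per3*, named after its values were seen, was at 19.5 and 23.1 CPM in replicates 1 and 3 and at 57.7 to 68.1 CPM in the 3 other controls, with 26.5 to 43.4 CPM in GF+MEV livers. Other clock genes, also named after their values were seen, divided the controls likewise. In replicates 1 and 3 *Tef* was at 153 and 157 CPM (228 to 244 in the 3 others) and *Dbp* at 111 and 108 CPM (137 to 152). *Arntl* went the other way, at 3.61 and 4.23 CPM (1.18 to 1.92), and so did *Nr1d1*, at 162 and 168 CPM (142 to 154). *Hlf*, *Nr1d2*, *Bhlhe40* and *Bhlhe41* were, like *Tef*, lower in replicates 1 and 3 than in every other control. Of the clock genes listed, *Nfil3* alone did not divide the controls. What the alike livers shared is not given in the sources used here. With replicates 1 and 3 summed into 1 library and 4 and 5 into another, *Cyp27a1* stayed past the test (log2 fold change 0.29, edgeR adjusted p = 0.0452).

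**Figure D5:**
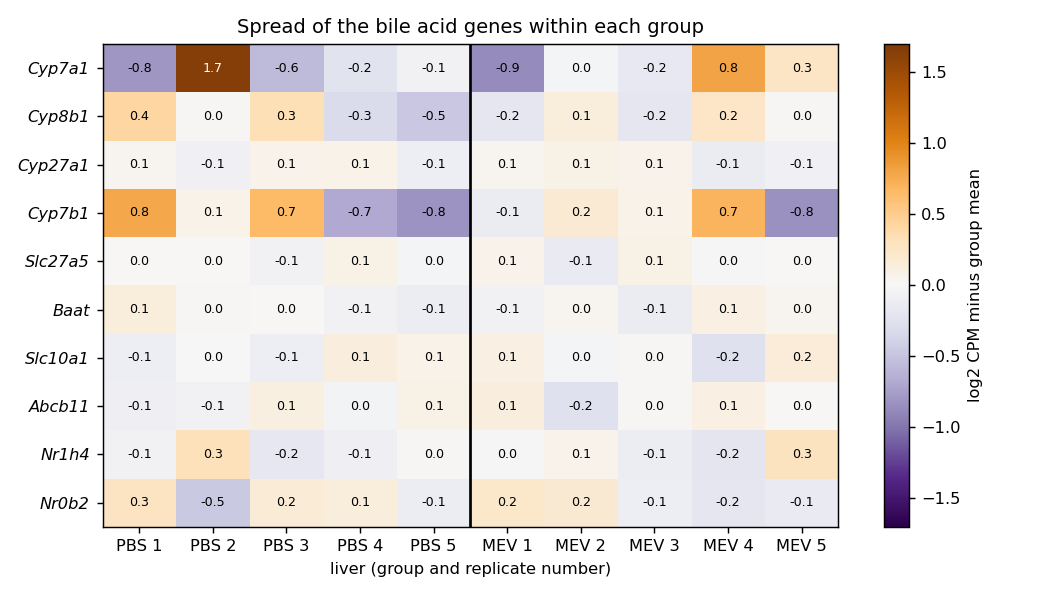
Log2 CPM of each bile acid gene in each liver minus the mean of its group (colour and number), with GF+PBS livers on the left and GF+MEV livers on the right of the line. *Cyp7a1*, *Cyp7b1* and *Cyp8b1* carry most of the spread, and the columns of GF+PBS replicates 1 and 3, and of 4 and 5, look alike.

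Genes whose pattern over the 10 livers was most like that of a synthesis or feedback gene, after removing each group's mean, were listed by Pearson r as a description. For *Cyp7a1* they were *Zc3hav1* (r = 0.94), *Ddx20* (0.92) and *Med13l* (0.92), all of them highest within GF+PBS in replicate 2. For *Cyp8b1* they were *Gm31583* (r = 0.96), *Pnkd* (0.96) and *Rnf34* (0.96). For *Nr0b2* they were *Srp9* (r = 0.98), *Tpgs1* (0.97) and *Bbc3* (0.97). Each is the top of 12147 genes, and the values share livers and library scaling.

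Of the other synthesis genes, 12 of 14 listed were tested, with 1 called higher and 1 lower and a median log2 fold change of -0.01. *Slc27a2*, the very long chain acyl-CoA synthetase that activates the sterol side chain, was higher at 2252 to 2353 CPM against 1849 to 2126 CPM, without overlap (log2 fold change 0.20, edgeR adjusted p = 0.0418). *Akr1d1*, the 5beta-reductase that shapes the sterol nucleus, was lower at 135 to 159 CPM against 158 to 204 CPM (log2 fold change -0.27, edgeR adjusted p = 0.0355). Both calls were fragile: 9 of the 10 fits that left out a liver lost that of *Slc27a2* (all but the one without GF+PBS replicate 4), down to a log2 fold change of 0.17 without GF+PBS replicate 1. For *Akr1d1*, 7 of 10 lost it (all but those without GF+MEV replicate 5, GF+PBS replicate 1 or GF+PBS replicate 3), to -0.21 without GF+PBS replicate 5. The peroxisomal genes *Scp2* (log2 fold change 0.16, edgeR adjusted p = 0.0957), *Abcd3* (-0.10, 0.349) and *Hsd17b4* (-0.05, 0.668) and the reductase *Akr1c6* (-0.17, 0.284) did not pass. *Scp2* ran from 4309 to 4682 CPM against 3889 to 4263 CPM, without overlap, as in 7.39% of all tested genes. Of the 18 alternatives, DESeq2 alone called *Scp2* (DESeq2 adjusted p = 0.0121). *Slc27a2* shares exon positions with *Gm26697* on the other strand.

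Of the other bile transporters, 12 of 14 were tested, with 1 called higher and 1 lower and a median log2 fold change of 0.01. *Abcb4* (MDR2), which flips phospholipid into bile, was higher at 389.8, 359, 350.0, 326 and 386 CPM in GF+MEV replicates 1 to 5 against 295, 306, 305, 305 and 314 CPM in GF+PBS replicates 1 to 5. The groups did not overlap (log2 fold change 0.25, edgeR adjusted p = 0.0166), and leaving out any liver kept the call, while of the other alternatives the replicate block (0.25, edgeR adjusted p = 0.0528) and summing the alike GF+PBS livers (0.26, edgeR adjusted p = 0.0596) lost it. *Abcc4*, a basolateral export pump, was barely expressed and lower, at 1.30 to 2.50 against 2.02 to 3.81 CPM (log2 fold change -0.74, edgeR adjusted p = 0.0390), a call lost in 8 of the 10 fits without a liver (all but those without GF+MEV replicate 1 or GF+PBS replicate 3), to -0.62 without GF+MEV replicate 3. The canalicular pump *Abcc2* (log2 fold change 0.02, edgeR adjusted p = 0.926), the basolateral pump *Abcc3* (0.00, 0.980) and the uptake carriers *Slco1b2* (-0.12, 0.480) and *Slco1a1* (0.12, 0.409) did not pass, and the signs of *Abcc2* and *Abcc3* turned with upper-quartile scaling.

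Of 18 listed regulators known to act on these enzymes and transporters, 16 were tested, with 3 called higher and 1 lower, where 4.12% and 3.52% of all tested genes were called, and a median log2 fold change of 0.04. *Hnf4a*, a nuclear receptor known to drive *Cyp7a1* and *Cyp8b1*, was higher at 682 to 775 CPM against 489 to 569.9 CPM (log2 fold change 0.45, edgeR adjusted p = 0.000361). *Ppargc1a*, a coactivator of HNF4alpha, was higher at 16.5 to 23.1 CPM against 5.77 to 13.0 CPM (log2 fold change 1.21, edgeR adjusted p = 0.00129). *Nr1i2* (PXR), a sensor of xenobiotics and bile acids, was higher at 80.1 to 119.9 CPM against 59.2 to 76.3 CPM (log2 fold change 0.65, edgeR adjusted p = 0.000864). In none of these 3 genes did the groups overlap, and each kept its call under all 18 alternatives. *Cyp8b1*, whose promoter holds the HNF4 site printed above, was not called in the same livers. Its log2 fold change was 0.27 (limma-voom interval -0.02 to 0.63), so the missing call does not show that it was unchanged. Whether *Hnf4a* or *Ppargc1a* bears on *Cyp8b1* here was not tested.

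*Zfp36l1*, which encodes an RNA-binding protein known to promote decay of *Cyp7a1* mRNA, was lower at 77.0 to 124 CPM against 111 to 146 CPM (log2 fold change -0.43, edgeR adjusted p = 0.0395). Its call was lost in 7 of the 10 fits without a liver (all but those without GF+MEV replicate 4, GF+PBS replicate 1 or GF+PBS replicate 2), to -0.36 without GF+MEV replicate 5, and its exons overlap *Gm26669* on the other strand. *Rxra*, the partner receptor of FXR (log2 fold change 0.25, edgeR adjusted p = 0.0778), *Insig2* (0.30, 0.258), the oxysterol receptor LXRalpha gene *Nr1h3* (-0.07, 0.477) and *Ppara* (0.09, 0.815) did not pass.

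*Cyp7a1* is known to follow the circadian clock, and of the 10 clock genes read for this reason 1 was called higher and 2 lower (4.12% and 3.52% of all tested genes), with a median log2 fold change of -0.11. *Nr1d1* (REV-ERBalpha) was lower at 100.3 to 125 CPM against 142 to 168 CPM, without overlap (log2 fold change -0.48, edgeR adjusted p = 0.000592). The E-box repressor gene *Bhlhe40* was higher at 122 to 179 CPM against 79.96 to 111 CPM, without overlap (log2 fold change 0.52, edgeR adjusted p = 0.00903). Its relative *Bhlhe41* was lower at 4.77 to 6.68 against 6.16 to 8.79 CPM (log2 fold change -0.47, edgeR adjusted p = 0.0291), a call lost in 8 of the 10 fits without a liver (all but those without GF+MEV replicate 5 or GF+PBS replicate 1), to -0.41 without GF+MEV replicate 4. The output factors *Dbp* (log2 fold change -0.25, edgeR adjusted p = 0.176), *Tef* (0.03, 0.933) and *Hlf* (0.05, 0.845) and the repressor *Nr1d2* (0.07, 0.768) did not pass. As given above, all the clock genes read but *Nfil3* also divided the controls, the called ones among them. In GF+PBS replicates 1 and 3 *Bhlhe40* was at 79.96 and 89.3 CPM (109 to 111 in the other controls). *Nr1d1* was at 162 and 168 CPM there (142 to 154), and *Bhlhe41* at 6.16 and 7.50 CPM (7.90 to 8.79). Whether this split bears on the calls was not tested. Exons of *Nr1d1* overlap *Thra* on the other strand, those of *Bhlhe40* overlap *0610040F04Rik* and those of *Bhlhe41* overlap *Gm43909*. Whether the clock genes bear on the spread of *Cyp7a1* was not tested.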

How the data were processed

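Total RNA of 10 whole livers was sequenced from libraries made with a NEBNext Ultra kit. Reads were aligned by the authors with STAR 2.7.3a to GRCm38 after bcl2fastq 2.17 (versions per the submitters' processing notes) and counted with HTSeq. The authors report dropping genes below 20 counts across all samples, and whether this cut was on the total is not stated. Of the 12148 genes in the count table, 11725 had at least 10 counts in every library used here. What the authors deposited are raw, unnormalized counts for each gene. The strand setting and annotation used for counting are not given in the sources used here. A further 5 columns of per-sample values matched no described sample and were not used.

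Samples were grouped by the treatment label. Genes with at least 20 counts over the 10 livers were tested in R 4.3.3 with edgeR 4.0.16 (TMM, quasi-likelihood, treatment alone, Benjamini-Hochberg threshold 0.05). CPM are TMM-scaled. Log2 fold changes are those of edgeR unless said otherwise. Standard errors (SE) are those of the difference in group means of log2 CPM, prior count 2. Single values and ratios were also tested by two-sided exact permutation of the group labels. Intervals of 95% came from limma-voom (limma 3.58.1) and are centred on its own estimate, not on that of edgeR. Where nothing says that livers came from separate cages or litters, p-values measure the spread between these samples only. Alternatives were DESeq2 1.42.0, limma-voom, RLE and upper-quartile scaling, no filter, at least 10 counts in every library, a replicate block, each liver left out in turn, alike GF+PBS livers summed and, for ratios, exact Mann-Whitney tests. Fits were tested on simulated data.

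The genes and lists were chosen with earlier results of these data known. Named were the 10 genes, every called gene of the related lists with up to 4 uncalled genes of highest CPM in each, and the 3 genes most like *Cyp7a1*, *Cyp8b1* and *Nr0b2*. Symbols and positions came from GENCODE for GRCm38. Of the listed bile acid and bile genes, *Hsd3b7*, *Ch25h*, *Slc51a*, *Slc51b*, *Vdr* and *Gpbar1* were absent from the count table and so were not tested.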

Additional observations from a re-analysis of the deposited data

Results flagged for a closer look

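*Cyp7a1* in GF+PBS replicate 2 stood at 138 CPM, far from the 4 other GF+PBS livers at 24.99 to 42.0 CPM. The gap to the nearest of them was 0.849 of the group's range, above Dixon's 95% critical value for 5 samples. It was the only such liver in 28 groups of values examined (the 10 genes and 4 ratios in both groups), where chance at 1 in 20 gives about 1.4. The same liver had the lowest *Nr0b2* (34.4 CPM) of all 10 livers and the highest *Nr1h4* (139 CPM), while *Cyp8b1* (359 CPM) and *Cyp7b1* (89.8 CPM) lay inside their group's range.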

How the results depend on the processing

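Of the 18 alternatives, 17 kept *Cyp27a1* past the threshold, at log2 fold changes of 0.24 to 0.30, and upper-quartile scaling gave 0.23 and left 0 of the 10 genes called. All 18 kept the sign and side of the threshold of *Cyp8b1* (0.16 to 0.38), *Nr0b2* (0.16 to 0.33), *Slc27a5* (-0.10 to -0.02) and *Abcb11* (-0.11 to -0.01). Leaving out each liver in turn gave 1 to 2 of the 10 genes called, 6 to 9 of the related genes named (11 with all livers) and 696 to 926 genes in all. It moved the log2 fold change of *Cyp7b1* from 0.67 to 1.09, of *Cyp7a1* from -0.81 to 0.14, of *Baat* from -0.054 to 0.011, of *Slc10a1* from -0.042 to 0.053, of *Nr1h4* from -0.063 to 0.10, of *Abcc2* from -0.062 to 0.085, of *Abcc3* from -0.021 to 0.039, of *Ppara* from -0.045 to 0.22, of *Tef* from -0.058 to 0.10 and of *Nr1d2* from -0.0013 to 0.13, and the *Baat* to *Slc27a5* log2 ratio from -0.013 to 0.086. Upper-quartile scaling turned the sign of *Nr1h4* (-0.026), *Abcc2* (-0.016), *Abcc3* (-0.037) and *Tef* (-0.0080). Summing the alike GF+PBS livers, an alternative that earlier results prompted, called 561 genes, 5 of the related genes among them, and turned *Slc10a1* (0.0076), *Nr1h4* (-0.027), *Abcc3* (-0.0074) and *Tef* (-0.00032). The causes were not tested.

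With the replicate number as a block 792 genes were called, against 928, with *Cyp27a1* the 1 called gene of the 10 and 8 of the 11 related genes called (all but *Abcb4*, *Slc27a2* and *Bhlhe41*). Same-numbered livers deviated together with correlations from -0.188 to 0.166 and 2 GF+MEV livers were closest to their own number, so the numbers were not taken as pairs. With 5 livers a group, the interval for *Cyp7a1* spans -1.19 to 0.49 on the log2 scale, where the gene had 307 counts or more in every liver.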
